A study of Mus musculus with 6 samples.

Results

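The genes described here encode chains of the T cell receptor. They were the 5 rows of the deposited expression table with the symbols Trac, Trbc1, Trbc2, Trbv13-2 and Trgv2, out of 41079 genes listed. Trac encodes the constant region of the alpha chain, Trbc1 and Trbc2 encode alternative constant regions of the beta chain, Trbv13-2 is a variable segment of the beta chain, and Trgv2 is a variable segment of the gamma chain. The members were selected on their TPM in these 6 libraries, for how the values stood between temperatures and between replicate numbers, so their levels are given as a description.

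The cells were D10 cells, a cloned mouse helper T cell line labelled as CD4+ and as lymph node in origin. Cold-acclimated cells had spent 24 h at 26°C, and non-acclimated cells had spent the same 24 h at 37°C, with 3 libraries for each temperature, numbered replicate 1 to 3. Both groups came from the same line in the same medium and differed by temperature alone, as far as the labels say. The line is a single clone kept in culture. RNA was extracted in batches that the labels call old and new without assigning libraries to them, so replicate number and extraction batch cannot be told apart.

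The libraries held between 16899606 and 31290827 reads on genes, read numbers that were recovered from the deposited values. Values are TPM, a measure of transcript abundance, which divide reads by gene length and set every library to the same total. Levels can be compared between genes only as far as the counted lengths cover alike parts of the transcripts. The lengths of the members are given below. The T cell marker genes Cd3e, Cd3g, Cd2 and Lck were above 77 TPM in all 6 libraries. Thy1, which most mouse T cells express, was listed at 0 in each, and Cd5 did not exceed 0.0454 TPM. Cd4, the coreceptor that the label names, was at 310 and 328 TPM in the non-acclimated and cold-acclimated libraries of replicate 3. It was at 1.09 and 1.30 TPM in those of replicate 1, and at 0.0351 and 0.352 TPM in those of replicate 2. The label CD4+ therefore matched the values of replicate 3 only, and each result below is given by replicate number. The CD8 genes Cd8a and Cd8b1 did not exceed 0.225 TPM, and the 3 natural killer cell markers were at 0. The 7 B cell markers summed to between 1.91 and 3.62 TPM at 37°C and between 0.948 and 2.06 TPM at 26°C, with Ms4a1 and Igkc at 0. The 5 macrophage and monocyte markers summed to 2.46 to 15.9 and to 2.69 to 21.2 TPM, and the highest sums were those of replicate 3. Of the erythroid markers, Hba-a1 was at 60.8 to 485 TPM, whereas Hbb-bs was at 0.

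As background, an alpha and a beta chain pair to form the receptor with which helper T cells recognise peptide on MHC molecules. Each chain is built from a variable, a joining and a constant part, and the beta chain also from a diversity segment. These segments are joined in the DNA while the cell develops in the thymus, so that the cells of a clone share their rearrangements. The receptor reaches the surface together with the CD3 proteins, which carry the signal into the cell. Gamma chains pair with delta chains in a different lineage of T cells, but rearranged gamma genes are also found in many alpha beta T cells.

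The 5 genes lie in 3 loci of the GRCm39 genome. Trac is on chromosome 14 (chr14:54457978-54461655, plus strand). The beta genes are on chromosome 6, with Trbv13-2 at chr6:41098330-41098766, Trbc1 at chr6:41515153-41516599 and Trbc2 at chr6:41523664-41525115, all on the plus strand. Trgv2 is on chromosome 13 (chr13:19520743-19521196, minus strand). The gene lengths behind the TPM were 927 bases for Trac, against a coding length of 410, and 519 and 520 bases for Trbc1 and Trbc2, whose coding length is 518 each. They were 340 for Trbv13-2 and 350 for Trgv2, equal to their coding lengths. The 3′ parts of the transcripts thus count for Trac but scarcely for the beta constant genes, which bears on every comparison of level between the chains.

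Whether reads can be placed on one constant gene rather than on the other depends on how far their sequences differ. Of the 518 coding bases of Trbc1 and Trbc2, 23 differed (95.56% identical). One stretch, coding positions 239 to 518 spliced from the exons of each gene, holds all of them and is shown because the beta constant result rests on it, with differing bases in capitals.
Trbc1: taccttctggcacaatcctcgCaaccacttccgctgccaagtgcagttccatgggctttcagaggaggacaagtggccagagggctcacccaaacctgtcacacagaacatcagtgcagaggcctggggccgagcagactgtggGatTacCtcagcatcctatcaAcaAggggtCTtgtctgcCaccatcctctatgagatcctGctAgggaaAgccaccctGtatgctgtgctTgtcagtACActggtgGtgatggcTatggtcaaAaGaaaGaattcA
Trbc2: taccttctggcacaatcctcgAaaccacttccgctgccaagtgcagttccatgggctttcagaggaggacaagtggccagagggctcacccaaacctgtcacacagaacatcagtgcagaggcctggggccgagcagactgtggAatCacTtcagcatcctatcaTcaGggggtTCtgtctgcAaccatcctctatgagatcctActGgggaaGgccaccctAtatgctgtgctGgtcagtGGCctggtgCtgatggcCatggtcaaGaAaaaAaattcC
The first exon of 375 bases held 1 difference and the rest held 22. Of the 369 windows of 150 bases, the read length, in each coding sequence, 110 (29.8%) were the same in both genes.

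The variable segment was compared in the same way with its neighbour Trbv13-3, the closest relative in name, over 294 bases of the variable exon (chr6:41098473-41098766 for Trbv13-2 and chr6:41107226-41107519 for Trbv13-3, plus strand). The pair is shown because nearly all variable-segment signal of the beta locus fell on one of them, and capitals again mark the 24 bases that differ (91.84% identical).
Trbv13-2: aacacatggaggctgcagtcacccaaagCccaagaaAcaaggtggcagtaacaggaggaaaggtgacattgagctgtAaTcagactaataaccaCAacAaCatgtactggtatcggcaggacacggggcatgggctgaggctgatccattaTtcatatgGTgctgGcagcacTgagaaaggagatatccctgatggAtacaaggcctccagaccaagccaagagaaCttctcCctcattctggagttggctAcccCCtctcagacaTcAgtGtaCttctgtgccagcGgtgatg
Trbv13-3: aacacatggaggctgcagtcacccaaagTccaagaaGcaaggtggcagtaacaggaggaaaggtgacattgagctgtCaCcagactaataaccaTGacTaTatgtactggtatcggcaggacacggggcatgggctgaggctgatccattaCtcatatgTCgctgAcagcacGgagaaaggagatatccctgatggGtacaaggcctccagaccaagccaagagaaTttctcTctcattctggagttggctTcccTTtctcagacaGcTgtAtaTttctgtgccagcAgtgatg
No window of 150 bases in the coding sequence of Trbv13-2 was found in another receptor gene, among 226 receptor genes with a coding sequence. The same held for Trac and Trgv2.

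The beta constant region was read from Trbc2. Trbc2 was at 591, 474 and 308 TPM in non-acclimated replicates 1, 2 and 3, against 616, 473 and 305 TPM after cold acclimation. The libraries of one replicate number thus lay close together at both temperatures, whereas replicate 1 was highest and replicate 3 lowest at each temperature, 1.92-fold apart at 37°C and 2.02-fold at 26°C. These values rested on 1618 to 2769 reads per library. Trbc1 was listed at 0 in 5 libraries and had 1 read, or 0.214 TPM, in cold-acclimated replicate 2. In the 5 libraries at 0, the count allows up to 3 reads, for counting error only. Taken as TPM, this is between 0.109% and 0.186% of the TPM of Trbc2 in the same library.

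The log2 fold change of Trbc2, cold-acclimated against non-acclimated on log2(TPM + 1), was 0.06, -0.01 and -0.01 within replicates 1, 2 and 3. It was 0.01 in limma over all 6 libraries (standard error 0.35, 95% confidence interval -0.81 to 0.83), and its interval was -0.40 to 0.43 with the replicate number in the model. A change under 0.1 in size within each replicate number was seen for 44 of the 12227 tested genes (0.36%), a criterion chosen after the values of Trbc2 had been seen. The median of all tested genes was -0.34 with the deposited values and 0.03 after the libraries were rescaled by the median of ratios. On that scale the change of Trbc2 was 0.49, 0.52 and 0.28 in the 3 replicates, so that its constancy held for the share of total TPM and not for the rescaled level.

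Trbv13-2, for which RefSeq gives the older name Tcrb-V8.2, carried the variable part. It was at 451, 550.4 and 446 TPM in non-acclimated replicates 1, 2 and 3, and at 438, 660.1 and 321 TPM in cold-acclimated ones. The groups overlapped, and replicate 2 was the highest at both temperatures. Trbv13-2 made up between 95.2% and 98.3% of the TPM of all 35 beta variable genes in each library, including those of replicates 1 and 2, which had little Cd4. The change within replicates 1, 2 and 3 was -0.04, 0.26 and -0.47 on the log2 scale, and -0.08 in limma over all libraries (standard error 0.30, 95% confidence interval -0.79 to 0.62). Its sign turned after median of ratios scaling, which gave 0.33 (95% confidence interval -0.43 to 1.09).

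**Figure D1:**
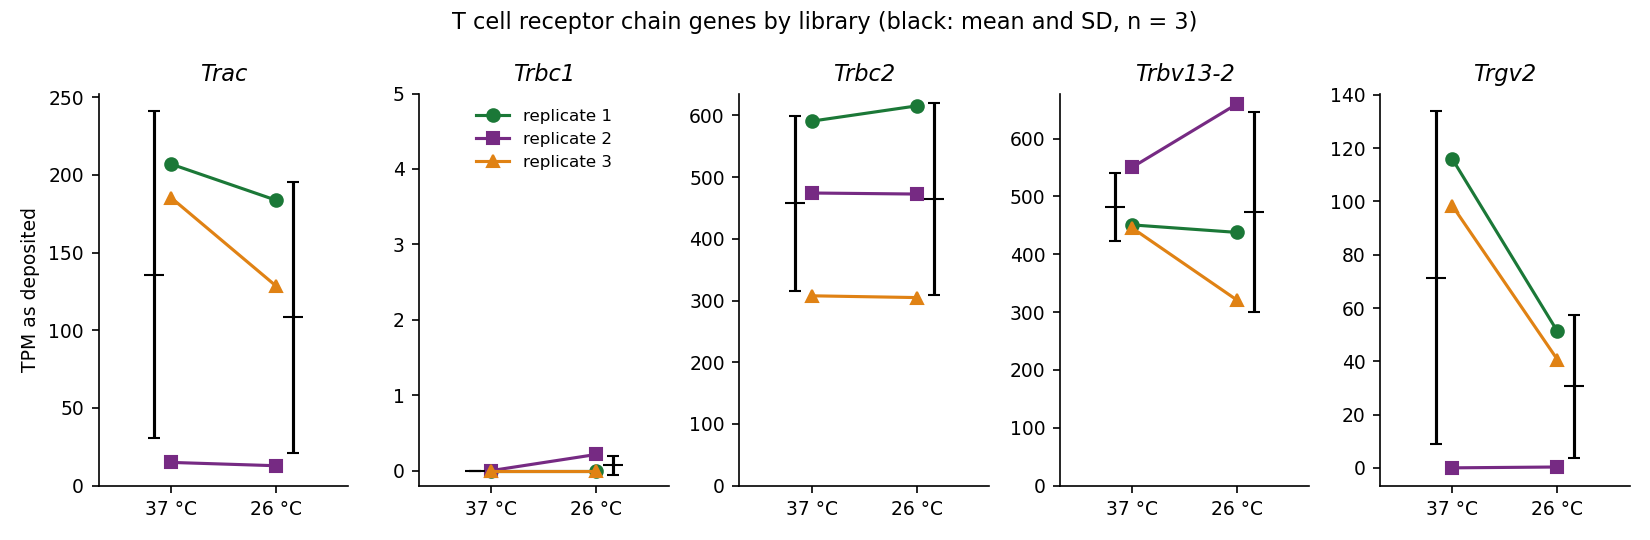
TPM of each T cell receptor chain gene (vertical axis, one scale per gene) at 37°C and 26°C, with the libraries of 1 replicate number joined by a line and the mean ± SD of 3 libraries in black. Trbc2 and Trbv13-2 are at 305 TPM or more in all 6 libraries and Trbc1 is at or near 0, whereas Trac and Trgv2 are low in both libraries of replicate 2.

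Taken within each library, the ratio of Trbv13-2 to the summed beta constant TPM does not depend on how libraries are scaled. It was 0.763, 1.16 and 1.45 at 37°C and 0.711, 1.40 and 1.05 at 26°C, with overlapping groups. The mean log2 ratio was 0.12 ± 0.47 and 0.02 ± 0.49 (SD, n = 3 each), a difference of -0.10 (p = 0.7 in a two-sided exact permutation test, for which 0.1 is the smallest value with 3 against 3).

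The diversity and joining segments of the beta locus held few reads. The 2 diversity segments and the 7 joining segments of the first cluster, Trbj1, were at 0 in all libraries. The 7 joining segments of the second cluster, Trbj2, which lies next to Trbc2, summed to 113, 84.3 and 104 TPM in non-acclimated replicates 1, 2 and 3 and to 54.5, 45.1 and 17.9 TPM in cold-acclimated ones. These sums rested on only 34 to 61 reads at 37°C and 9 to 23 reads at 26°C, because the segments are short. All 7 segments were above 0 in some library, so the sums describe the cluster and not 1 joining segment. The groups did not overlap, nor did they after median of ratios scaling, where the sums were 69.6 to 99.7 and 18.6 to 65.0. A few of these segments were among the 8 other receptor genes with the highest mean TPM.
Trbj2-2 was at 40.0, 11.9 and 27.7 TPM at 37°C and at 11.3, 17.4 and 3.84 TPM at 26°C. Trbj2-7 was at 24.8, 5.18 and 28.3 TPM, and at 14.8, 14.2 and 0 TPM. Trbj2-3 was at 32.7, 9.93 and 15.3 TPM, and at 9.44, 6.80 and 2.00 TPM. The groups overlapped for Trbj2-2 and Trbj2-7 and not for Trbj2-3, as for 41.1% of all tested genes. Trbj2-6, finally, was at 6.08, 27.9 and 12.1 TPM at 37°C and at 9.63, 0 and 4.08 TPM at 26°C, again with overlap.
In limma none of the 4 was called, which took an adjusted p under 0.05 and a change of at least 1 on the log2 scale in either direction. With the replicate number in the model Trbj2-3 was called (log2 fold change -1.54, 95% confidence interval -2.45 to -0.63, adjusted p = 0.023 in limma). The values of Trbj2-3 rested on 11, 4 and 9 reads in replicates 1, 2 and 3 at 37°C and on 4, 3 and 1 at 26°C. When 1 of the 6 libraries was left out, the limma fit with no replicate term gave adjusted p of 0.11 to 0.25.

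Among the 34 beta variable genes apart from Trbv13-2, Trbv12-2 had the highest mean. It was at 12.2, 10.1 and 4.69 TPM in non-acclimated replicates 1, 2 and 3 and at 20.8, 15.8 and 7.90 TPM in cold-acclimated ones. Each cold-acclimated library was higher than the non-acclimated one of its number, although the groups overlapped. The log2 fold change was 0.66 (95% confidence interval -0.38 to 1.70, adjusted p = 0.33 in limma), and with the replicate number in the model the adjusted p was 0.056.

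The alpha constant region differed between replicate numbers. Trac was at 207, 15.0 and 185 TPM in non-acclimated replicates 1, 2 and 3, against 184, 12.8 and 129 TPM after cold acclimation. Both libraries of replicate 2 were thus far below the other 4, with 13.8-fold between the highest and the lowest replicate at 37°C and 14.3-fold at 26°C. The low values rested on 114 and 107 reads, against 1216 to 2067 reads in the other libraries, so that counting error is small beside the difference. Between replicate numbers, 3.61% of all tested genes were called in limma's moderated F test with a range of at least 1. This share is background only, since Trac was chosen for the difference.

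Between temperatures Trac changed little within a replicate number. Its log2 fold change was -0.17, -0.21 and -0.52 in replicates 1, 2 and 3, which was lower at 26°C in each, as for 47.9% of all tested genes, but median of ratios scaling turned the sign in replicates 1 and 2, to 0.26 and 0.28, and left it at -0.23 in replicate 3. In limma over all libraries it was -0.30 with a standard error of 1.24 (95% confidence interval -3.18 to 2.58). The interval narrowed to -0.77 to 0.17 with the replicate number in the model. Without both libraries of replicate 2, a choice made after seeing the data, the change was -0.35 (95% confidence interval -1.24 to 0.54).

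The ratio of Trac to the summed beta constant TPM within a library was 0.350, 0.0315 and 0.602 at 37°C and 0.298, 0.0271 and 0.422 at 26°C. Both libraries of replicate 2 were far below the other 4 in this ratio too. The ratio was lower at 26°C in all 3 replicates, by 0.23, 0.22 and 0.51 on the log2 scale, with a mean log2 ratio of -2.41 ± 2.26 at 37°C and -2.73 ± 2.16 at 26°C (SD, n = 3 each). An exact permutation test gave p = 0.7, and an exact sign-flip test over the 3 pairs gave p = 0.25, the smallest it allows.

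Variable and joining segments of the alpha chain were barely detected. The 130 alpha and alpha/delta variable genes, of which 20 were above 0 in any library, summed to 20.9, 10.5 and 14.2 TPM in non-acclimated replicates 1, 2 and 3. In the cold-acclimated libraries they summed to 3.32, 1.33 and 6.19 TPM. No gene among them stood out as Trbv13-2 did, and the highest value in any library was 5.73 TPM, for Trav13-2, a gene named after its values were seen. The 60 joining segments summed to 19.0, 5.71 and 28.2 TPM at 37°C, from 3 to 16 reads, and to 1.83, 0 and 0 TPM at 26°C, from 1 read in all. Many alpha variable genes exist as near-identical copies: 67 of the 110 with a coding sequence shared at least 1 window of 150 bases with another receptor gene, and the median share of such windows was 17.4%. How reads that align to several copies were counted is not given in the sources used here. The low values of the genes with shared windows are therefore uncertain. Trav13-2 shared no such window with another receptor gene.

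The gamma genes also differed between replicate numbers. Trgv2 was at 116, 0 and 98.3 TPM in non-acclimated replicates 1, 2 and 3, and at 51.2, 0.317 and 40.6 TPM in cold-acclimated ones. The libraries of replicate 2 held 0 and 1 read, against 145 to 414 reads in the other 4. Set against the 3 reads that a count of 0 allows in non-acclimated replicate 2, equal to 1.04 TPM, Trgv2 was at least 111-fold higher in non-acclimated replicate 1 and at least 94.3-fold higher in replicate 3. Trgv2 made up between 95.5% and 98.7% of the TPM of the 7 gamma variable genes in the libraries of replicates 1 and 3.

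At 26°C Trgv2 was lower than at 37°C in both replicates that expressed it, by 1.16 in replicate 1 and 1.26 in replicate 3 on the log2(TPM + 1) scale. After median of ratios scaling the changes kept their sign, at -0.74 and -0.97. With the deposited values, 47.9% of all tested genes were lower at 26°C in each of the 3 replicate numbers. Relative to Trac in the same library, Trgv2 stood at 56.0% and 53.0% at 37°C and at 27.9% and 31.6% at 26°C in replicates 1 and 3. In replicate 2 this ratio was 0% and 2.48%, and over the 3 replicates it averaged 36.3% ± 31.5 (SD, n = 3) at 37°C and 20.6% ± 15.8 (SD, n = 3) at 26°C, a difference within the spread between libraries (two-sided exact permutation p = 0.6, where 3 libraries against 3 cannot go below 0.1). The all-library value in limma was -0.67 with a standard error of 2.07 (95% confidence interval -5.49 to 4.14), and the interval was -1.53 to 0.19 with the replicate number in the model. Without the libraries of replicate 2 the change was -1.21 (95% confidence interval -2.07 to -0.35, adjusted p = 0.20 in limma).

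The gamma constant genes, which lie on the same chromosome as Trgv2, had patterns of their own. Trgc2, at chr13:19489230-19491721 on the minus strand, was at 168, 1.45 and 243 TPM in non-acclimated replicates 1, 2 and 3 and at 108, 0 and 104 TPM in cold-acclimated ones. Trgc1, at chr13:19398273-19400788 on the plus strand, was at 5.35, 0 and 217 TPM, and at 0.223, 0 and 53.3 TPM. Trgc4, at chr13:19528728-19536513 on the plus strand, was at 83.9, 0 and 14.8 TPM, and at 12.9, 0.194 and 6.51 TPM. Replicate 2 was thus at or near 0 for all 3 genes, Trgc1 was high in replicate 3 alone, and Trgc4 was highest in replicate 1.
The joining segments followed the same order, with Trgj1 above 0 in replicate 3 alone, Trgj4 in replicate 1 alone, and Trgj2 in the 4 libraries of replicates 1 and 3. Delta genes, the partners of gamma chains, were not detected: Trdc, the delta constant gene, and the 10 delta variable, diversity and joining genes were at 0 in all 6 libraries. Of the markers of gamma delta T cells that were listed, Sox13 did not exceed 1.68 TPM.

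No window of 150 bases was shared between the coding sequences of Trgc1 and Trgc2. The joining segments Trgj1 and Trgj2 are shown because the first was above 0 in replicate 3 alone and the other in replicates 1 and 3. Trgj1 (chr13:19394513-19394572, plus strand) and Trgj2 (chr13:19495415-19495474, minus strand) differed at 4 of 60 bases, given in capitals.
Trgj1: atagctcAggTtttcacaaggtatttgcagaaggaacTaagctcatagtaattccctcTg
Trgj2: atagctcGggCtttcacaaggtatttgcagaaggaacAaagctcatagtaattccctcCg

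**Figure D2:**
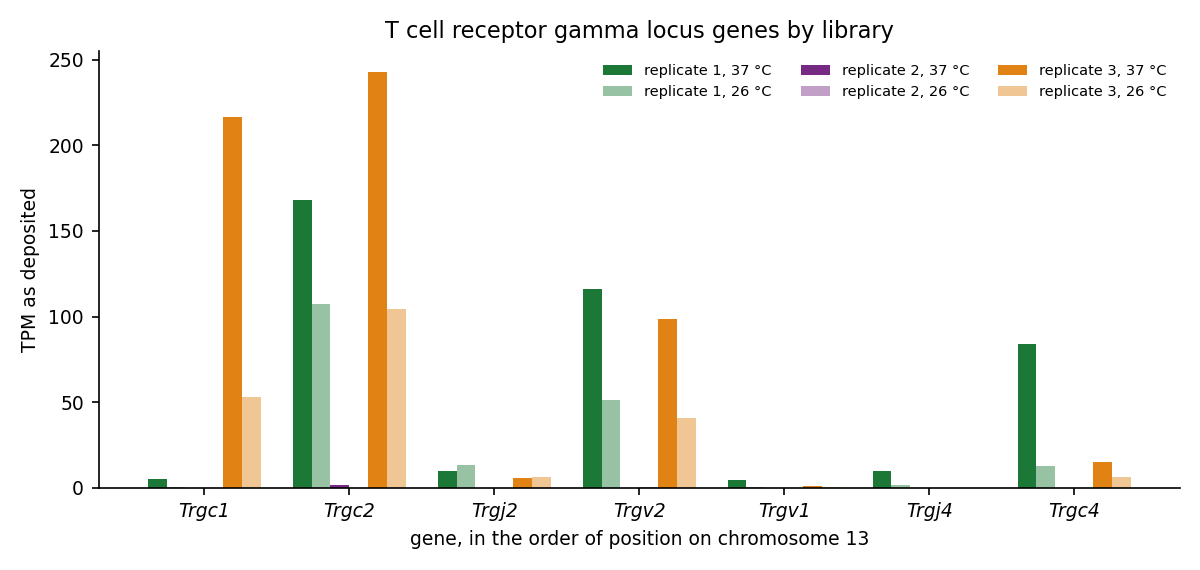
TPM (bars, 1 library each, linear axis from 0) of 7 genes of the T cell receptor gamma locus in the order of position, coloured by replicate number, with the lighter bar of each pair for 26°C. The libraries of replicate 2 are near 0 for every gene, Trgc1 is high in replicate 3 only, and Trgc4 is highest in replicate 1.

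The summed TPM of Trgc1, Trgc2, Trgc3 and Trgc4 was 258, 1.45 and 486 in non-acclimated replicates 1, 2 and 3 and 121, 0.194 and 167 in cold-acclimated ones. Trgc1, Trgc2 and Trgc4 were lower at 26°C in both replicates that expressed them. Over all tested genes, 47.9% were lower in each of the 3 replicate numbers. The log2 changes of the 3 constant genes lay between -2.61 for Trgc4 and -0.64 for Trgc2, both in replicate 1. All of these changes kept their sign after median of ratios scaling, where they ranged from -0.21 for Trgc2 in replicate 1 to -2.20 for Trgc4 in replicate 1.
In limma none of the 3 was called, with adjusted p of 0.64 to 0.78. With the replicate number in the model Trgc2 was called (log2 fold change -1.05, 95% confidence interval -1.59 to -0.50, adjusted p = 0.016 in limma), and so was Trgc1 (-1.46, 95% confidence interval -2.57 to -0.35, adjusted p = 0.048 in limma). Trgc4 was not (adjusted p = 0.12 in limma). In that model 21.9% of all tested genes were called lower and 3.75% higher. The libraries of replicate 2, which hardly expressed these genes, entered the model as a pair. The -1.05 of Trgc2 included -1.29 within replicate 2, which rested on 6 reads in the non-acclimated library and 0 in the cold-acclimated one. After median of ratios scaling the change of Trgc2 over all libraries was -0.76, below the size of 1 that a call required. That of Trgc1 was -1.30 on the same scale (95% confidence interval -6.27 to 3.68). Trgc1 was not called in that fit, which had no replicate term (adjusted p = 0.69 in limma). Its values rested on 19 reads in non-acclimated replicate 1 and 1 read in cold-acclimated replicate 1. In replicate 3 they rested on 1351 and 282 reads, and both libraries of replicate 2 held 0.

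Low values in replicate 2 were not limited to the receptor genes. Both libraries of replicate 2 were at least 10-fold below the lowest other library, itself above 0, for 26 of the 12227 tested genes (0.213%), a criterion chosen after the values were seen. Of these, 7 were receptor genes, namely Trgv1, Trgv2, Trgj2 and Trgc1 to Trgc4. The lowest other library held only 1 read for Trgc1, for Trgc3 and for Trgv1, and 4 reads for Trgj2. Both libraries of replicate 2 were at 0 for these genes, so they met the criterion near the floor. Trac, at 12.8 and 15.0 TPM against 129 to 207 TPM, did not meet the criterion. The corresponding numbers were 12 genes (0.0981%) for replicate 1 and 40 genes (0.327%) for replicate 3, with 0 receptor genes in either. With a mean of at least 5 TPM over the 6 libraries, the numbers were 1, 11 and 15 genes for replicates 1, 2 and 3, of which 5 in replicate 2 were receptor genes.

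In all, 265 receptor genes beside the 5 members were listed. Of these, 52 were above 0 in any library and 24 had a mean of at least 1 TPM. By mean TPM the order of the members was Trbv13-2 (478), Trbc2 (461), Trac (122), Trgv2 (51.0) and Trbc1 (0.0357). Trbv13-2 and Trbc2 changed places between replicates, whereas Trac was above Trgv2 in each of the 6 libraries.

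Of the 4 members with a mean of at least 1 TPM, 0 were called higher or lower at 26°C in limma, and the groups overlapped for all 4. Over all tested genes 18.6% were called, 2.63% higher and 16.0% lower. The adjusted p of the 4 members ranged from 0.85 for Trgv2 to 0.98 for Trbc2, and from 0.18 to 0.96 with the replicate number in the model. These p-values describe genes that were chosen with their values known.

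**Figure D3:**
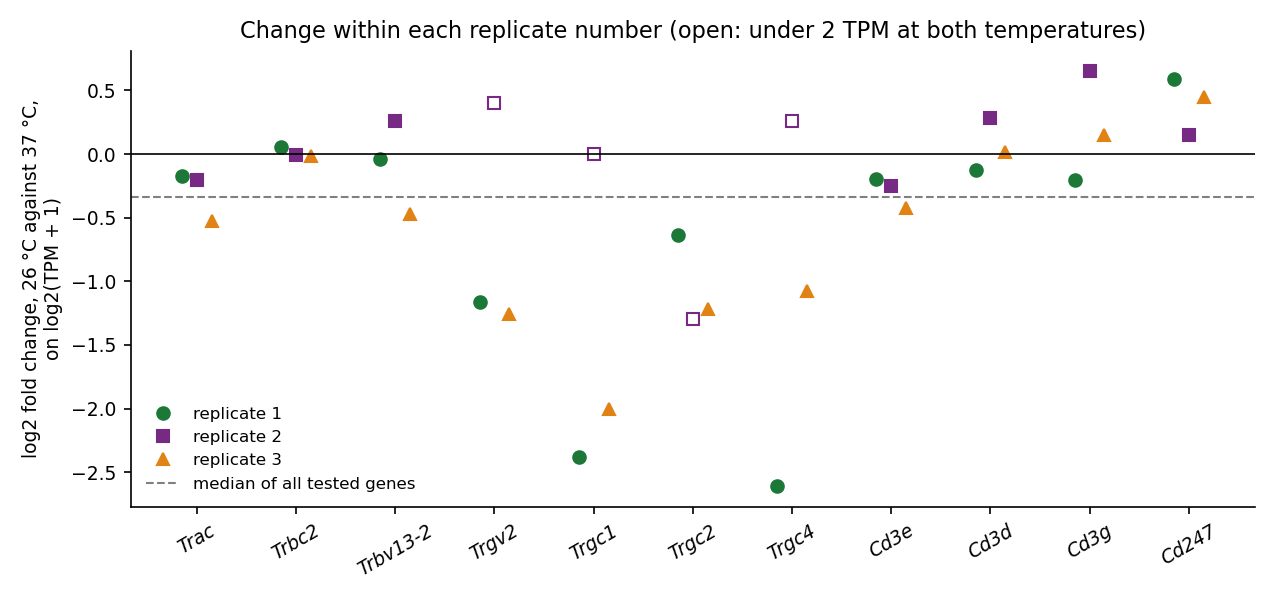
Log2 fold change at 26°C against 37°C on log2(TPM + 1) (vertical axis) within replicates 1, 2 and 3 for receptor chain genes, gamma constant genes and CD3 chains, with the median of all tested genes, -0.34, as a dashed line and open symbols where both libraries were under 2 TPM. Trbc2 lies at 0 in each replicate, whereas Trgv2, Trgc1, Trgc2 and Trgc4 lie below 0 in replicates 1 and 3, on this scale and after median of ratios scaling.

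The CD3 chains, with which the receptor assembles, were measured in the same libraries. Cd3e was at 874, 575 and 640 TPM in non-acclimated replicates 1, 2 and 3 and at 761, 484 and 476 TPM in cold-acclimated ones. Cd3g was at 1847, 970 and 954 TPM, and at 1604, 1521 and 1056 TPM. Cd3d was at 332, 64.3 and 240.1 TPM, and at 304, 78.6 and 243 TPM. Cd3d was lowest in replicate 2 at both temperatures, as Trac was, 5.17-fold and 3.87-fold below replicate 1, whereas Cd3e and Cd3g in replicate 2 stayed within the range of the other libraries or close to it. Cd247, the zeta chain, was at 39.9, 38.6 and 51.4 TPM, and at 60.5, 43.0 and 70.3 TPM. Cd247 was higher at 26°C within each replicate number, and its log2 fold change of 0.40 had a 95% confidence interval of -0.22 to 1.01 in limma. After median of ratios scaling its change was 0.80 (95% confidence interval 0.24 to 1.37, adjusted p = 0.058 in limma), and it was not called.

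**Figure D4:**
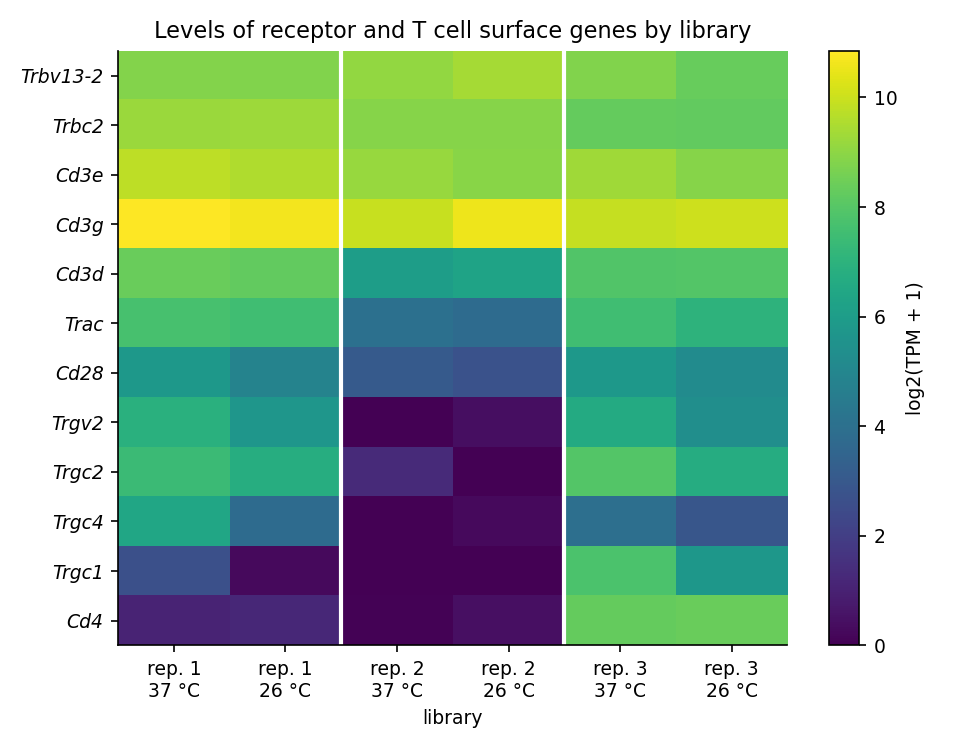
Level of receptor chain, CD3 and surface genes (rows) in the 6 libraries (columns, in pairs by replicate number) as log2(TPM + 1), shown by colour. The beta genes and Cd3e and Cd3g are at similar levels throughout, Trac, Cd28 and Cd3d are lower in replicate 2, the gamma genes are near 0 in replicate 2, and Cd4 is high in replicate 3 alone.

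Of the wider list of 28 genes for the receptor complex and its first signalling steps, 23 were tested, and 0 were called higher and 4 lower at 26°C, against 2.63% and 16.0% of all genes. The median log2 fold change of the 23 was -0.10, beside -0.34 for all tested genes. The 4 were Sla2 (log2 fold change of -2.53 with a standard error of 0.38, limma adjusted p = 0.0085) and Sla, adaptors known to dampen receptor signalling, Vav1, an exchange factor that links the receptor to the cytoskeleton, and Ubash3a, a negative regulator of signalling.
Sla2 was at 81.4, 80.0 and 72.6 TPM at 37°C and at 12.0, 7.26 and 22.6 TPM at 26°C. Vav1 was at 121, 121 and 146 TPM, and at 27.0, 26.2 and 63.1 TPM. For all 4, which were named because they were called, the groups did not overlap, as for 41.1% of all tested genes. Sla2 kept its call without any one library, Vav1 kept it in 2 of 6 such fits, and Sla and Ubash3a kept it in 1 of 6, without cold-acclimated replicate 3. After median of ratios scaling Sla2 and Vav1 were still called, and Sla and Ubash3a were not. On that scale 2 other genes of the list were called higher, against 840 higher and 1052 lower of the 12227 tested genes. The median log2 fold change of the 23 was then 0.32, beside 0.03 for all tested genes.

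Of 19 transcription factors known to act at the enhancers or promoters of the receptor loci, 16 were tested, and 0 were called higher and 2 lower, against 2.63% and 16.0% of all tested genes. With the replicate number in the model 4 were called lower, against 21.9%. Their median log2 fold change was -0.71, beside -0.34 for all tested genes, and it was -0.30, beside 0.03, after median of ratios scaling. On that scale 1 was called lower, against 1052 of the 12227 tested genes. Creb1 was at 22.5, 23.1 and 17.1 TPM at 37°C and at 2.67, 2.44 and 4.73 TPM at 26°C (change of -2.38 on the log2 scale with a standard error of 0.30, limma adjusted p = 0.0070), and it was called without any one library.
Ikzf1, which encodes the lymphoid factor Ikaros, was at 112, 131 and 144 TPM, and at 41.0, 44.8 and 60.1 TPM (-1.40 with a standard error of 0.24, limma adjusted p = 0.011). Ikzf1 lost its call when cold-acclimated replicate 1 or when non-acclimated replicate 2 was left out, with adjusted p of up to 0.058 in limma, and after median of ratios scaling, where its change was -0.99.

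Of 11 genes for V(D)J recombination and the pre-receptor, 7 were tested, and 0 were called higher and 4 lower, against 2.63% and 16.0% of all tested genes. The median log2 fold change was -1.17, beside -0.34 for all tested genes, and it was -0.88, beside 0.03, after median of ratios scaling. Rag1 and Rag2, the recombinase that acts in the thymus, were at 0. The 4 were Lig4, Prkdc, Nhej1 and Xrcc6, which also serve to join broken DNA ends in cells that do not recombine receptor genes. Lig4 was at 9.05, 9.62 and 5.24 TPM at 37°C and at 0.928, 0.996 and 1.04 TPM at 26°C (-2.14 with a standard error of 0.31, limma adjusted p = 0.0079), and it was called without any one library. Prkdc, Nhej1 and Xrcc6 were each called in 1 of 6 such fits, that without cold-acclimated replicate 3. After median of ratios scaling Lig4 and Prkdc were still called, and Nhej1 and Xrcc6 were not.

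The genes outside the receptor loci whose pattern over the 6 libraries was most like that of each member were found by the root mean square difference of gene-centred log2(TPM + 1), among genes with a mean of at least 5 TPM. For Trac these were Cd28, a costimulatory receptor (difference 0.58), and Tnfrsf9, another costimulatory receptor (0.61). Cd28 was at 54.5, 7.35 and 53.6 TPM in non-acclimated replicates 1, 2 and 3 and at 27.9, 5.61 and 36.2 TPM in cold-acclimated ones, again lowest in replicate 2. Tnfrsf9 was at 154, 35.5 and 255 TPM, and at 188, 33.3 and 204 TPM.
For Trgv2 they were Avil, an actin-binding protein gene (0.83), and Il13, which encodes a cytokine of helper T cells (1.06). Avil was at 136, 4.06 and 191 TPM, and at 101, 5.02 and 211 TPM. Il13 was at 54.5, 2.12 and 338 TPM, and at 173, 2.30 and 171 TPM. Both were low in replicate 2, but neither was lower at 26°C in both replicates 1 and 3 as Trgv2 was.
For Trbc2 they were Ssr4 (0.072) and Gnas (0.075), and for Trbv13-2 they were Rpl10, a ribosomal protein gene (0.088), and Tet3 (0.10). These differences are descriptions over 6 libraries that share their replicate numbers, and many genes were searched.

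As the libraries are bulk samples, fewer cells carrying a transcript and less of it per cell cannot be told apart in any of these values.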

How the data were processed

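The data were 6 RNA sequencing libraries of D10 T cells, 3 cold-acclimated (24 h at 26°C) and 3 non-acclimated (24 h at 37°C). According to the labels and the study's methods, poly(A)+ RNA was made into strand-specific libraries and sequenced in pairs, and the submitters' processing notes name FastQC 0.11.7, Trimmomatic 0.38, HISAT2 2.1.0, featureCounts 1.6.3 and GRCm39. The authors deposited TPM for each gene and library, and every library sums to the same total. For the annotation release, the strand setting and the treatment of reads that align to several places, the processing was not given in the sources used here. Read numbers were recovered from the step between the values of a gene, and came out whole within 1e-06 reads for 99.99% of the 21195 genes above 0. The depth was 16899606 to 31290827 reads per library.

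The tests used limma 3.58.1 (R 4.3.3) with a mean-variance trend, fitted to log2(TPM + 1) of the 12227 genes whose TPM averaged 1 or more. Calls required a Benjamini-Hochberg adjusted p under 0.05 across these genes and a change of at least 1 on the log2 scale in either direction. The pseudocount of 1 understates the fold change of genes with low TPM. Differences between replicate numbers were fitted with temperature and replicate number as terms (moderated F test). Ratios within a library were compared by exact two-sided permutation tests. The remaining steps ran in Python 3.11.15 (numpy 2.4.6, pandas 2.3.3, scipy 1.17.1), with figures from matplotlib 3.10.9. The scripts were tested on simulated counts.

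The deviations of libraries from the mean of their temperature correlated across genes at 0.48, 0.50 and 0.51 between libraries of the same replicate number and at -0.41 to 0.02 otherwise, so the numbers pair the libraries. Fits with the replicate number as a term are therefore given beside results that they change. The labels say that batches of RNA extraction served as biological replicates.

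The members, the gene lists and the rules were chosen with earlier results of these data known. The genes named are the 5 members, Cd3e, Cd3d, Cd3g, Cd247 and Cd4, the 8 other receptor genes with the highest mean TPM, up to 5 called genes with the smallest p in each of 3 lists, and the 2 genes most like each member. Marker genes and a few others are named besides, with their values. Positions and sequences were read from GRCm39 with the GENCODE annotation, and the other name of Trbv13-2 from RefSeq. Alternatives were a pseudocount of 0.1, no filter on low values, median of ratios scaling, quantile normalization, a replicate block, limma voom on the recovered reads with TMM scaling, and each library left out in turn. Leaving out both libraries of a replicate number was added after seeing the data. No table of the authors' own comparisons was used. One marker and one sequence comparison are not reported here.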

Additional observations from a re-analysis of the deposited data

How the results depend on the processing

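No member was called under any alternative run. The log2 fold changes of the members were small beside their spread, and their signs turned under several settings. With median of ratios scaling the value was 0.10 for Trac and 0.33 for Trbv13-2, with limma voom on recovered reads it was 0.082 for Trac, 0.28 for Trbv13-2 and 0.048 for Trgv2, and with quantile normalization it was -0.060 for Trbc2. With 1 library left out in turn it ranged from -1.51 to 0.86 for Trac, -0.25 to 0.29 for Trbc2, -0.36 to 0.16 for Trbv13-2 and -2.92 to 1.04 for Trgv2. Without both libraries of a replicate number the ranges were -0.37 to -0.19, -0.01 to 0.03, -0.26 to 0.11 and -1.21 to -0.38.

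Over all genes, 2275 were called, 321 higher and 1954 lower. The numbers were 1305 (184 and 1121) with no filter on low values, 1892 (840 and 1052) with median of ratios scaling, 1494 (722 and 772) with quantile normalization and 1886 (716 and 1170) in limma voom. Leaving out 1 library gave 404 to 3184 calls, with 59 to 459 higher and 345 to 2725 lower. The lowest counts were those without non-acclimated replicate 2 (404), cold-acclimated replicate 1 (522), non-acclimated replicate 1 (605) and cold-acclimated replicate 2 (678). Without both libraries of replicate 3, 3741 were called (653 and 3088), and without those of replicate 1 or of replicate 2, limma called 0 genes, with 2410 and 2229 at an unadjusted p under 0.05. The fit without replicate 3 had as few libraries as the fits that called 0 genes, and the cause of the difference was not tested.

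With the replicate block 3137 genes were called, and the calls of Trgc1, Trgc2 and Trbj2-3 were gained. No member's call changed under the block. Between replicate numbers 442 genes differed in limma, and 0 with no filter on low values, where 3189 had an unadjusted p under 0.05. Log2 ratios of Trgv2 to Trac and of Trbc1 to Trbc2 are undefined where a value is 0, so both were tested as percentages and with 1 TPM added to both terms, a choice made after seeing the data. The difference at 26°C for Trgv2 was -15.7 percentage points (-33.9 to -5.88 with 1 library left out; two-sided exact permutation p = 0.6, sign-flip p = 0.5 over the replicate pairs) and -0.37 on the log2 scale (-1.41 to 0.18; exact permutation p = 0.6, sign-flip p = 0.5). For Trbc1 it was 0.0151 percentage points (exact permutation p = 1) and 0.08 on the log2 scale (exact permutation p = 0.9). The smallest p these tests can give are 0.1 and, over pairs, 0.25.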
